A study of Mus musculus with 6 samples.

Results

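The genes described are 10 genes of MHC class I antigen presentation: the heavy chains H2-K1 and H2-D1, the light chain B2m, the peptide transporter subunits Tap1 and Tap2, the loading factor Tapbp, the inducible proteasome subunits Psmb8 and Psmb9, the peptidase Erap1 and the transcriptional regulator Nlrc5. They were found by gene name. The arrays carried 19 probes for them, of 56605 probes in all, and all 10 genes were among the 20817 genes tested. The study put RNA of 3 sorted cell fractions on 6 arrays, 2 a fraction, to compare phagocyte subsets of the sublingual mucosa. The mice were BALB/c, an inbred strain, and FITC, a fluorescent dye that sensitises on contact, had been painted on 2 times. Fr1 was sorted as CD11c+CD206-, Fr2 as CD11c- and CD206- cells that carry the macrophage antigen encoded by Adgre1, and Fr3 as CD206hi cells with that antigen. CD11c (gene Itgax) is an integrin of dendritic cells and CD206 (gene Mrc1) is the mannose receptor. All 3 fractions came from painted tissue, so there was no unpainted sample, and the tissue was the dorsal side of the tongue, digested for 30 min with collagenase and DNase. The 2 arrays of a fraction came from independent experiments per the series design, while the age of the mice and the number pooled for a sort are not given in the sources used here.

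MHC class I molecules show peptides from proteins made inside a cell to CD8+ T cells. The proteasome cuts the proteins, the TAP transporter carries the peptides into the endoplasmic reticulum, ERAP1 trims them, and tapasin, encoded by Tapbp, helps them onto the heavy chain paired with beta-2-microglobulin. Nearly all nucleated cells carry these molecules, interferon raises the genes together, and NLRC5 acts as a transactivator of class I genes. Dendritic cells and, less efficiently, macrophages can also load peptides from proteins they take up, which is called cross-presentation.

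The promoter stretches of 4 members are shown because these genes are known for shared regulatory elements there. They are from RefSeq (GRCm38.p6), written 5′ to 3′ on the gene's strand, and all lie upstream of the start site used (H2-K1 has more than 1 in the table). Capitals mark matches on either strand to TGACG (the core of the cyclic AMP response element), to GAANNGAAA (an interferon response type motif) and to the kappaB consensus.
H2-K1, chr17:34000353-34000482, minus strand: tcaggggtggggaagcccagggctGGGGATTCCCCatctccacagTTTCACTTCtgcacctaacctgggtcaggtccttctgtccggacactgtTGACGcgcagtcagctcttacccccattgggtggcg
H2-D1, chr17:35262899-35263028, plus strand: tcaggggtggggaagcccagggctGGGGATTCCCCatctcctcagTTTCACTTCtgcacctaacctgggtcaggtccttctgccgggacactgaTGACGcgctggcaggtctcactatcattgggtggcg
B2m, chr2:122147537-122147656, plus strand: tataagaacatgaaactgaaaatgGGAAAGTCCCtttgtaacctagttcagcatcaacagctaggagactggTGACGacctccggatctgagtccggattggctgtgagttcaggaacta
Tap1, chr17:34187436-34187555, plus strand: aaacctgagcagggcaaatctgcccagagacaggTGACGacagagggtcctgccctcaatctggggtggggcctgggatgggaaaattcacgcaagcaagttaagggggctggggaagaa
The 2 heavy chain stretches were identical at 119 of 130 bases, and they hold all 3 kinds of match in the same order. Across the 300-base windows of the promoter table, 8 members had an entry (all but Tap2 and Nlrc5). A member was counted if any of its entries matched, while the shares beside it are over single promoter entries. TGACG was found in 5 of the 8 (H2-K1, H2-D1, B2m, Tap1 and Psmb9), against 20.8% of all 32851 promoters. The kappaB consensus was found in 3 (H2-K1, H2-D1 and B2m), against 8.5%, and GAANNGAAA in H2-K1 and H2-D1, against 7.5%. The B2m stretch holds the similar gaaactgaaa, which is 1 base longer and so was neither matched nor marked. How many promoters hold that longer form was not counted. Tap1 and Psmb9 are transcribed away from each other from start sites 225 bases apart, so their windows share 275 of 300 bases and their matches are largely the same letters. These are matches of letters, and nothing was measured here on binding.

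Each gene was read by 1 or more probes of 60 bases, and a measured level belongs to a probe and not to a transcript. The probes of H2-K1, Psmb8, Psmb9 and Nlrc5 shown here carry the values quoted below for those genes or for their second probe, with every T in capitals because the gap between replicate arrays moved with the T content of a probe. Positions are the files' own, on mm9.
H2-K1, second probe, chr17:34133984-34134043: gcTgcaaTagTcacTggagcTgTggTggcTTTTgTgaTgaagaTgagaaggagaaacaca
Psmb8, chr17:34337771-34337830: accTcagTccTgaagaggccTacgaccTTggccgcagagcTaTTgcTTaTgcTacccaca
Psmb9, chr17:34319174-34319233: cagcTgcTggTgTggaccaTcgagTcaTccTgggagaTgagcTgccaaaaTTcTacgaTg
Nlrc5, second probe, chr8:97030478-97030624: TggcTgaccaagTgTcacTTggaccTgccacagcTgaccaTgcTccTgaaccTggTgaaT
The Nlrc5 probe spans 147 genome positions with 60 bases. Probes follow the reference strain's sequence, and BALB/c mice carry other alleles of the highly variable heavy chain genes, so heavy chain levels also depend on how well the probe pairs with the BALB/c allele. Against the other class I heavy chain probes of the design, the H2-K1 second probe matched the nearest (H2-L) at 41 of 60 bases, while the probe used for H2-K1 and that of H2-D1 reached 27 of 60. Probes were compared with probes and not with the transcripts of other class I genes. A low match therefore does not show that a probe reads its gene alone.

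A level is the log2 of a probe's processed intensity after subtracting the 75th percentile of its array, so that 0 is that percentile and each unit is a factor of 2. Spots well above background made up 44.6% to 52.4% of an array, and none was saturated. Both Fr2 arrays lay on 1 slide and scan and the Fr1 and Fr3 arrays on another, so a difference of Fr2 from either of the others cannot be told apart from the slide. Fr3 replicate 2 stood apart from Fr3 replicate 1. Pearson's r between replicates over 20817 genes, which are not independent points, was 0.883 for Fr1, 0.898 for Fr2 and 0.796 for Fr3. The median gap of replicate 2 over replicate 1 went with probe T content, from 0.72 at probes of at most 20% T to -1.86 at probes over 40% T in Fr3, from 0.48 to -1.04 in Fr1, and from 0.24 to 0.03 in Fr2. Results that rest on Fr3 replicate 2 are therefore also given without it. For CD206 the gate gene was read as labelled in Fr1 and Fr3, but less so in Fr2. Mrc1 was not well above background on either Fr1 array, and stood at 4.10 and 3.01 in Fr3. In Fr2, also sorted as CD206-, it stood at 0.98 and 0.65 and was well above background on both arrays. Itgax stood at 3.05 and 2.66 in Fr1, 3.10 and 1.53 in Fr2, and 0.52 and 1.29 in Fr3, so the mRNA did not separate Fr1 from the fraction sorted as CD11c-. Adgre1 was well above background on all 6 arrays, those of Fr1 included. Its differences were -1.51 for Fr1 minus Fr2, -0.95 for Fr1 minus Fr3 and 0.56 for Fr2 minus Fr3. Markers of other cell types were present. The summed relative intensity of 8 neutrophil genes was 142 and 151 in Fr1, 611 and 664 in Fr2, and 60.7 and 30.4 in Fr3, with 6 and 5 of them well above background in Fr1, 8 and 7 in Fr2, and 7 and 5 in Fr3, and Ly6g above it on Fr2 replicate 1 alone. For 8 eosinophil genes the sum was 24.9 and 25.2 in Fr1, 101 and 196 in Fr2, and 9.11 and 16.2 in Fr3, with 5 to 8 of them above background on an array. The part of these cells in any Fr2 difference below was not tested. T and NK cell markers were highest in Fr1 in sum, but not each of them. The summed relative intensity of the 9 on the array was 25.4 and 27.8 in Fr1, 7.71 and 14.6 in Fr2, and 12.2 and 17.3 in Fr3. Above background were 7 and 7 in Fr1, 4 and 6 in Fr2, and 6 and 6 in Fr3. Of 6 tested, 3 (Gzma, Gzmb and Il2rb) had both Fr1 arrays above all others. Cd4 had its lowest mean in Fr1 (2.45, with 2.80 in Fr2 and 3.20 in Fr3). The Cd3e means were 0.93, 0.88 and 0.63 in the same order, and Ncr1 overlapped. Il2rb, a chain of the interleukin 2 and 15 receptors, stood at 1.89 and 1.44 in Fr1, -3.89 (not above background) and -2.06 in Fr2, and -1.43 and -1.52 in Fr3. The part of these cells in any Fr1 difference below was not tested. In such bulk samples, fewer cells of a type and less RNA per cell cannot be told apart.

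All 10 genes were read above background in at least 1 fraction, and none passed the test for a difference between fractions. No member had an adjusted p under 0.05 (limma, moderated t-test, Benjamini-Hochberg over 20817 genes). In Fr1 minus Fr2, 0% of all genes did, and in Fr1 minus Fr3, in Fr2 minus Fr3 and in the F-test over the 3 fractions 0.0048% did, which is 1 gene (Gm2042, no member, named after its values were seen). The lowest adjusted p of a member was 0.391. At an unadjusted p under 0.05, 0 members passed in Fr1 minus Fr2, where 3.35% of all genes passed as higher and 6.42% as lower. In Fr1 minus Fr3, 1 member passed (Erap1, lower in Fr1), where 2.8% of all genes passed as higher and 5.36% as lower. In Fr2 minus Fr3, 1 member passed (Nlrc5, higher in Fr2), where 4.84% of all genes passed as higher and 4.06% as lower. The F-test passed Erap1 (adjusted p = 0.428, limma) and Nlrc5 (adjusted p = 0.493, limma) at that unadjusted threshold, 2 of 10 against 9.95% of all genes. The median member difference was -0.38 in Fr1 minus Fr2, -0.12 in Fr1 minus Fr3 and 0.37 in Fr2 minus Fr3, beside 0.04, -0.05 and -0.08 over all genes. With 2 arrays a fraction, an exact permutation test of a single gene cannot go below 0.333 (two-sided). A p that misses the threshold does not show that levels were alike.

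**Figure D1:**
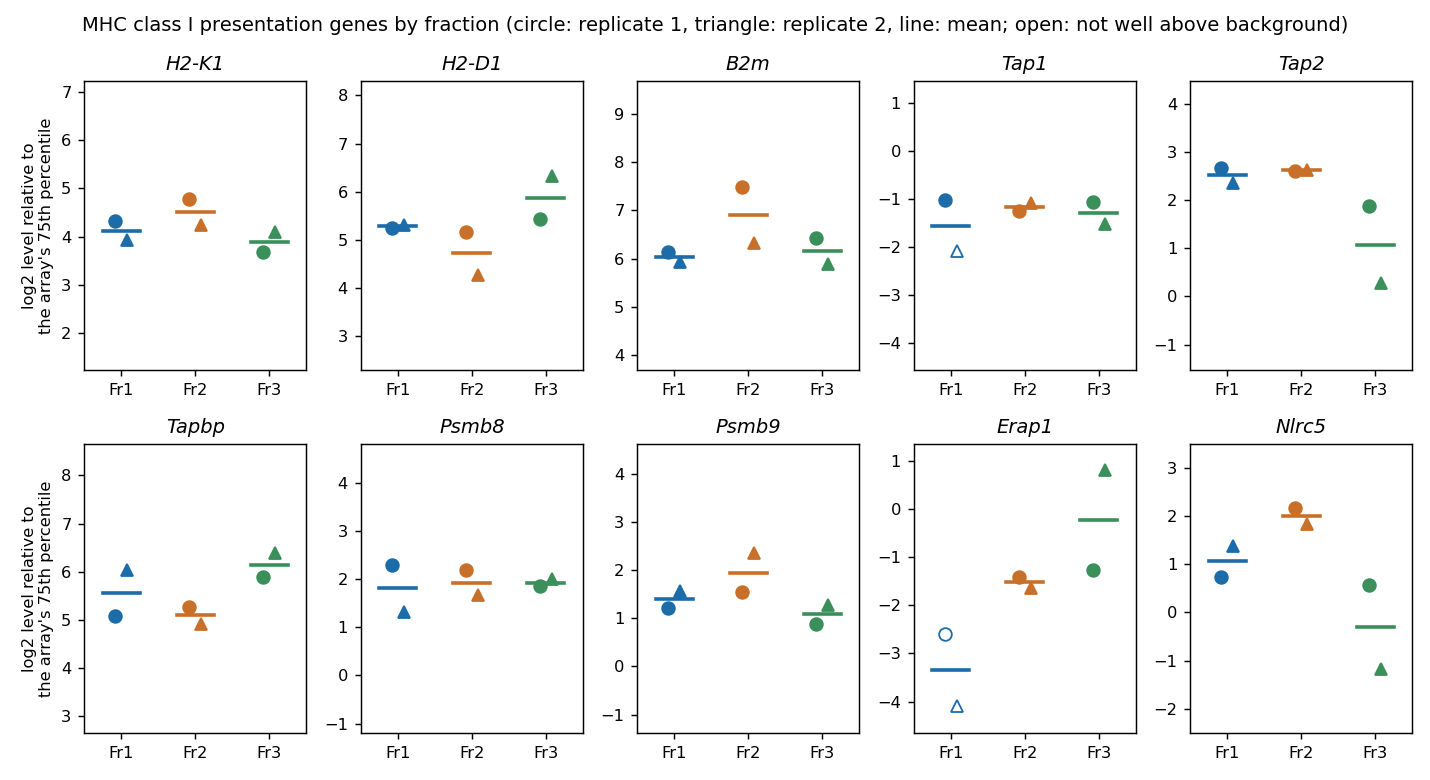
Level of each of the 10 genes on every array (vertical axis, log2 against the 75th percentile of the array, each panel on its own range of equal height), with Fr1, Fr2 and Fr3 from left to right; circles are replicate 1, triangles replicate 2, lines group means, and open symbols arrays where the probe was not well above background. Erap1 was open on both Fr1 arrays and Tap1 on 1 of them, and the Fr3 arrays of Tap2, Erap1 and Nlrc5 lie far apart.

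The heavy chains H2-K1 and H2-D1 bind the peptide, and B2m is the light chain that both need; all 3 were well above background on every array. H2-K1 stood at 4.32 and 3.93 in Fr1, at 4.77 and 4.24 in Fr2, and at 3.69 and 4.09 in Fr3. Fr1 overlapped both other fractions, and Fr2 lay above Fr3 (Fr2 minus Fr3 0.62 ± 0.55, adjusted p = 0.696, limma). That direction turned with the processing: the difference was -0.33 on the second H2-K1 probe and -0.0829 with the trend with T content removed, and it was 0.36 without Fr2 replicate 1. H2-D1, a second classical heavy chain, stood at 5.26 and 5.31 in Fr1, 5.17 and 4.28 in Fr2, and 5.44 and 6.32 in Fr3, in the order of means Fr3, Fr1, Fr2 with no overlap between any of the fractions. The H2-D1 differences were 0.56 ± 0.62 (SE; 95% interval -0.91 to 2.03) for Fr1 minus Fr2, -0.60 ± 0.62 for Fr1 minus Fr3 and -1.16 ± 0.62 for Fr2 minus Fr3, with limma adjusted p of 0.811, 0.813 and 0.607. Without Fr3 replicate 2 the differences from Fr3 were -0.16 for Fr1 and -0.72 for Fr2, and without Fr3 replicate 1 Fr1 minus Fr3 was -1.04. Fr1 minus Fr2 was 0.11 without Fr2 replicate 2 and 1.00 without Fr2 replicate 1. The sum of the T and NK cell markers was higher in Fr1 than in Fr2, and its part in H2-D1 was not tested. B2m, the invariant light chain, stood at 6.14 and 5.94 in Fr1, 7.49 and 6.33 in Fr2, and 6.43 and 5.88 in Fr3. Both Fr2 arrays were above both Fr1 arrays, with a Fr1 minus Fr2 difference of -0.87 ± 0.62 (adjusted p = 0.681, limma). Fr2 replicate 2 minus replicate 1 was -1.15, a wider gap than that difference, which was -0.295 without Fr2 replicate 1 and -1.45 without Fr2 replicate 2. A second B2m probe gave 1.03 with no overlap, in the opposite direction, and the mean of both probes 0.0792.

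Peptide transport and loading gave levels that differed in order from gene to gene. Tap1 was near background: it stood at -1.03 and -2.08 in Fr1, with the second array not above background, at -1.25 and -1.09 in Fr2, and at -1.06 and -1.52 in Fr3. Tap2, its transporter partner, stood at 2.67 and 2.36 in Fr1, 2.61 and 2.63 in Fr2, and 1.87 and 0.27 in Fr3. Both Fr3 arrays were below all others, and Fr3 replicate 2 was the lowest, read by a probe with 38.3% T, in the range of T content where the median gap of that array over all probes was -0.61. The Tap2 difference was 1.44 ± 0.68 for Fr1 minus Fr3 (95% interval -0.18 to 3.06, adjusted p = 0.622, limma) and 1.55 ± 0.68 for Fr2 minus Fr3 (adjusted p = 0.573), and without Fr3 replicate 2 they were 0.64 and 0.75. Tapbp stood at 5.09 and 6.04 in Fr1, 5.27 and 4.92 in Fr2, and 5.90 and 6.39 in Fr3. Both Fr3 arrays were above both Fr2 arrays, with a Fr2 minus Fr3 difference of -1.05 ± 0.60 (95% interval -2.47 to 0.37, adjusted p = 0.610, limma), or -0.81 without Fr3 replicate 2.

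The inducible catalytic subunits of the proteasome replace their constitutive counterparts in the immunoproteasome. Psmb8 stood at 2.29 and 1.32 in Fr1, 2.18 and 1.66 in Fr2, and 1.85 and 2.00 in Fr3, and the fractions overlapped in every pair. Its Fr2 minus Fr3 difference was -0.01 ± 0.60 (95% interval -1.43 to 1.42), and its differences from Fr1 were -0.11 and -0.12. Psmb9 stood at 1.22 and 1.57 in Fr1, 1.54 and 2.35 in Fr2, and 0.89 and 1.28 in Fr3. Both Fr2 arrays were above both Fr3 arrays, by 0.86 ± 0.58 (adjusted p = 0.632, limma), or by 0.46 without Fr2 replicate 2 and 0.49 with normexp background correction and quantile scaling. The mean of the 3 inducible catalytic subunits (Psmb8, Psmb9, Psmb10) minus that of their constitutive counterparts (Psmb5, Psmb6, Psmb7), each centred on its own mean over the arrays, was -0.03 and 0.60 in Fr1, -0.52 and -0.07 in Fr2, and 0.08 and -0.06 in Fr3. The Fr1 arrays were both above the Fr2 arrays, the nearest at -0.03 and -0.07, and overlapped the Fr3 arrays. Over single genes, 22.7% lay wholly higher in Fr1 than in Fr2. The inducible subunits themselves were not all higher in Fr1. Fr1 minus Fr2 was -0.11 for Psmb8, -0.55 for Psmb9 and 0.15 for Psmb10.

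Erap1, the aminopeptidase that trims peptides in the endoplasmic reticulum, was read above background in Fr2 and Fr3 but not in Fr1. That reading rests on 1 of its 3 probes, and the others were above background on no array of any fraction. It stood at -2.60 and -4.10 in Fr1, not well above background on either array, at -1.40 and -1.64 in Fr2, and at -1.28 and 0.80 in Fr3. Fr2 and Fr3 did not overlap, and the 2 Fr3 arrays were 2.08 apart. The Fr2 minus Fr3 difference was -1.28 ± 0.87 (adjusted p = 0.634, limma), or -0.25 without Fr3 replicate 2. Because Fr1 gave only a bound, Erap1 on the processed signal was at least 1.33-fold lower in Fr1 than in Fr2 (adjusted p = 0.555, limma). Against Fr3 it was at least 3.23-fold lower in Fr1 (adjusted p = 0.391, limma). Both bounds depend on the background correction. With normexp and quantile scaling the log2 differences were -0.14 for Fr1 minus Fr2 and -0.53 for Fr1 minus Fr3, smaller than the bounds. The bound sets the brighter fraction's mean against a floor for Fr1, which on each array is the dimmest signal called well above background or, if higher, the probe's measured signal. The adjusted p comes from the measured signals, dim ones included. The bounds do not cover the spread between replicates. For Fr1 minus Fr2 the 95% interval of the measured difference was -3.89 to 0.25 (limma). The bound against Fr2 was 1.21-fold without Fr1 replicate 1 and 1.22-fold without Fr2 replicate 1. The bound against Fr3 rested on Fr3 replicate 2 and was at least 1.57-fold without it. Without Fr3 replicate 1, which leaves a lone Fr3 array assumed to vary like the other groups, it was at least 6.64-fold (adjusted p = 0.0304, limma). That was the only member call under the 17 settings tried, 1 of 10 members where 6.76% of all genes were called in that setting. Putting Erap1 at its bounds left the median member difference at -0.38 in Fr1 minus Fr2 and at -0.12 in Fr1 minus Fr3.

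Nlrc5 encodes the regulator of the pathway. It stood at 0.74 and 1.37 in Fr1, 2.17 and 1.83 in Fr2, and 0.58 and -1.17 in Fr3. The fractions did not overlap, in the order Fr2, Fr1, Fr3, and Fr3 replicate 2 was the lowest array. Its differences were -0.94 ± 0.73 for Fr1 minus Fr2 (adjusted p = 0.711, limma), 1.36 ± 0.73 for Fr1 minus Fr3 (adjusted p = 0.624) and 2.30 ± 0.73 for Fr2 minus Fr3 (95% interval 0.56 to 4.03, adjusted p = 0.424). Without Fr3 replicate 2, Fr1 minus Fr3 was 0.48 and Fr2 minus Fr3 was 1.42, and with normexp and quantile scaling Fr2 minus Fr3 was 0.99. The probe has 25% T, in the range where the median gap of Fr3 replicate 2 over replicate 1 was 0.60 over all probes, so its low value there ran against the other probes of that content.

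**Figure D2:**
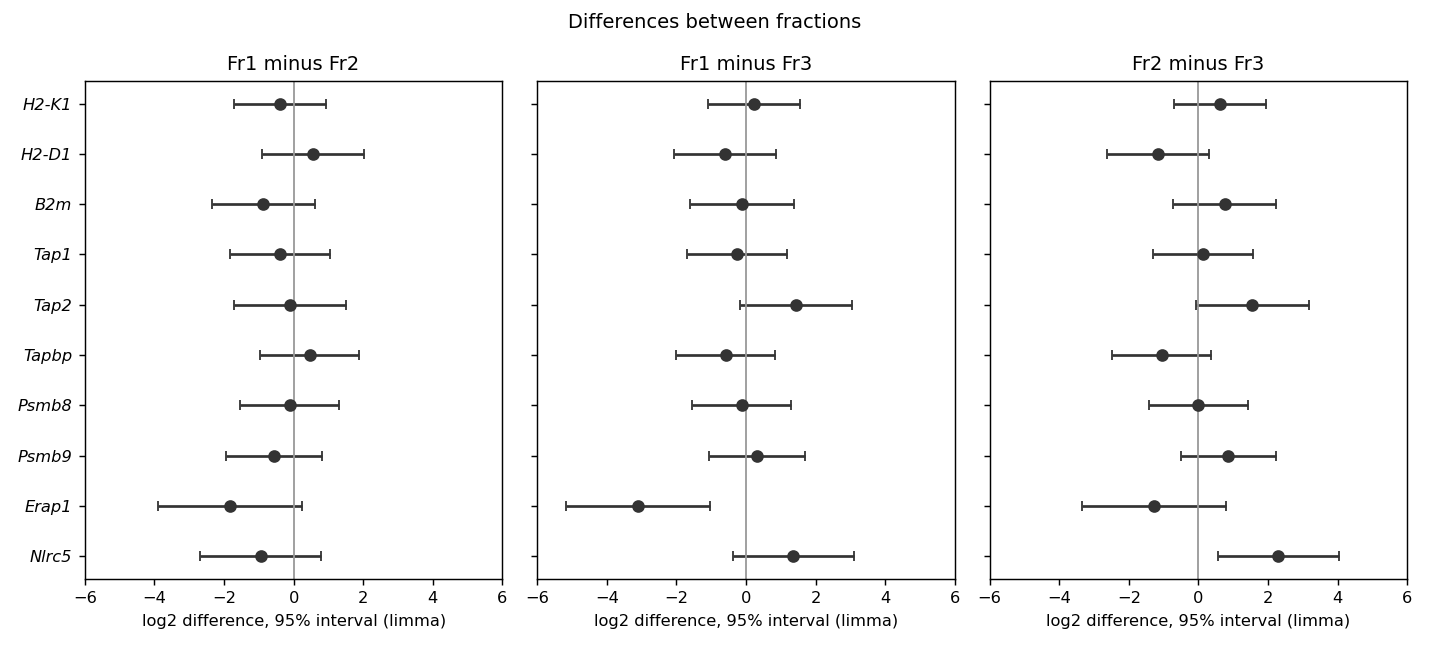
Difference of each gene between fractions (horizontal axis, log2; points, with limma's 95% intervals) for Fr1 minus Fr2, Fr1 minus Fr3 and Fr2 minus Fr3, from left to right. The intervals cross 0 for all genes except Erap1 in Fr1 minus Fr3 and Nlrc5 in Fr2 minus Fr3, where the adjusted p was 0.391 and 0.424; Erap1 was not well above background in Fr1, so its points there rest on dim signals.

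With 2 arrays a fraction, non-overlapping fractions were common among all genes. In Fr1 minus Fr2, 1 member lay wholly higher in Fr1 (H2-D1) and 3 wholly lower (B2m, Erap1, Nlrc5), against 22.7% higher and 22.2% lower, or 45% in either direction, over all genes. In Fr1 minus Fr3, 2 were higher (Tap2, Nlrc5) and 2 lower (H2-D1, Erap1), against 13.7%, 21.9% and 35.6%. In Fr2 minus Fr3, 4 were higher (H2-K1, Tap2, Psmb9, Nlrc5) and 3 lower (H2-D1, Tapbp, Erap1), against 19.5%, 22.6% and 42%. The order of means was Fr2, Fr1, Fr3 for 4 members (H2-K1, Tap2, Psmb9, Nlrc5), and each other order that occurred held 2.

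The order of the fractions differed among the 10 genes. Averaged over members after centring each on its own mean, the level was -0.06 and -0.31 in Fr1, 0.38 and 0.08 in Fr2, and -0.04 and -0.04 in Fr3. Both Fr2 arrays, on a slide of their own, were above the other 4. Over the 6 arrays, 25 of 45 member pairs had a positive Pearson r, with a median of 0.085, and pairs reached from -0.84 (H2-D1 with Nlrc5) to 0.91 (Tap2 with Nlrc5). These are descriptions over 6 arrays in 3 groups that share slides and T content. The 5 other genes whose levels were most like the member mean were Mbd1 (r = 0.993), Snrnp70 (0.992), Zfp770 (0.989), Tmem220 (0.987) and Ttc13 (0.986), by Pearson r over 6 arrays, with no test. They were sought among the 20817 genes tested, leaving out members and genes with clone, accession, Gm, LOC, RIKEN, microRNA or lincRNA names.

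For 4 members a second probe was kept, and its direction differed from that of the first in more than 1 gene in each comparison. The 2 probes had the same sign in 2 of 4 genes for Fr1 minus Fr2 and in 1 of 4, Tapbp, for each of the other comparisons. Tapbp's second probe stood at 1.05 and 1.75 in Fr1, 0.92 and 0.63 in Fr2, and 1.19 and 2.10 in Fr3, with a Fr2 minus Fr3 difference of -0.87 beside -1.05. Nlrc5's second probe stood at -1.38 and 0.34 in Fr1, -0.70 and -0.19 in Fr2, and -1.09 and 0.94 in Fr3, so its Fr2 minus Fr3 difference was -0.37 beside 2.30 for the first. H2-K1's second probe stood at 2.69 and 3.42 in Fr1, 3.00 and 2.80 in Fr2, and 2.66 and 3.80 in Fr3. B2m's second probe stood at 0.77 and 0.69 in Fr1, -0.41 and -0.20 in Fr2, and -1.17 and 1.31 in Fr3. On each of the 4 second probes Fr3 replicate 2 was above Fr3 replicate 1. Of the other member probes, 3 were above background on no array.

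**Figure D3:**
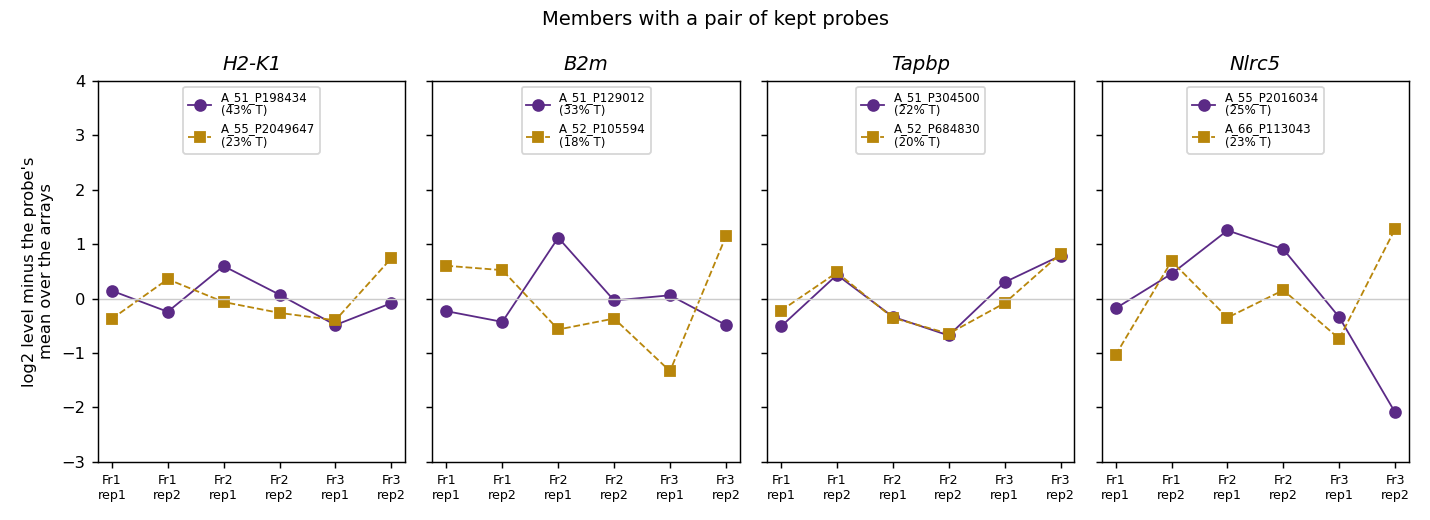
Level of each kept probe of H2-K1, B2m, Tapbp and Nlrc5 on the 6 arrays minus the probe's mean over them (vertical axis, log2), with Fr1, Fr2 and Fr3 from left to right; circles with solid lines are the probe used for the gene, squares with dashed lines the second probe, and lines only join the points. The 2 Tapbp probes run together, and the 2 Nlrc5 probes part most on Fr3 replicate 2, at -1.17 and 0.94 before centring.

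**Figure D4:**
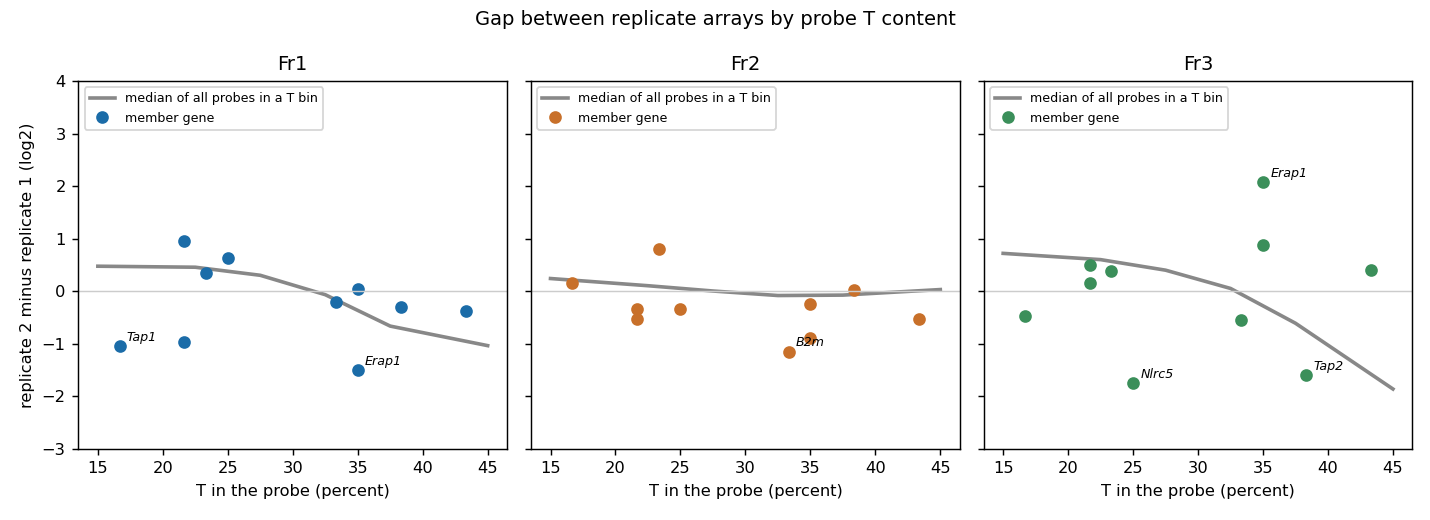
Replicate 2 minus replicate 1 (vertical axis, log2) of the 10 genes against the percentage of T in the probe (horizontal axis), for Fr1, Fr2 and Fr3; the grey line joins the medians of all probes in bins of T content. The median falls with T content in Fr1 and Fr3 and stays near 0 in Fr2, and Nlrc5 in Fr3 (25% T) lies far below it.

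Other genes of the pathway gave no call either, and none of the 9 lists below, taken from general knowledge of the pathway, had a member past an adjusted p under 0.05 in any comparison. The constitutive proteasome core cuts proteins in all cells. Of its 14 subunits, 11 had a lower mean in Fr1 than in Fr2 (median -0.74, 7 with no overlap) and 13 a lower mean in Fr1 than in Fr3 (median -0.61, 8 with no overlap), beside the shares of non-overlapping genes in that direction of 22.2% and 21.9%. The sum of the T and NK cell markers was high in Fr1, and its part in the proteasome differences was not tested. Psma2 stood at 3.24 and 2.84 in Fr1, 4.59 and 4.44 in Fr2, and 3.79 and 3.72 in Fr3. Among 8 genes of the loading complex and endoplasmic reticulum folding, 7 had a lower mean in Fr1 than in Fr3. Of all 20817 genes, 10939 had a lower mean in Fr1 than in Fr3, and 10099 in Fr1 than in Fr2. Calr, a chaperone of the loading complex, stood at -0.18 and -0.94 in Fr1, 0.93 and -0.42 in Fr2, and 1.25 and 1.00 in Fr3.

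Class I-like molecules share the fold of class I heavy chains, and 6 were tested. Fcgrt, the heavy chain of the neonatal Fc receptor, stood at -1.83 and -2.19 in Fr1, -1.18 and -2.66 in Fr2, with 1 array of each above background, and 2.03 and 2.02 in Fr3. Hfe, which regulates iron uptake, stood at -1.49 and -0.85 in Fr1, -1.18 and -1.73 in Fr2, and 1.59 and 0.91 in Fr3. Both genes had both Fr3 arrays above all others, and adjusted p for Fr1 minus Fr3 was 0.168 for Fcgrt and 0.323 for Hfe (limma). Macrophage markers were also highest in sum on the Fr3 arrays. Their summed relative intensity was 103 and 93.9 in Fr1, 344 and 158 in Fr2, and 468 and 409 in Fr3, with 6 and 6 of 8 markers above background in Fr1, 7 and 6 in Fr2, and 8 and 7 in Fr3, with Mrc1 below it on both Fr1 arrays and Mertk above it on Fr3 replicate 1 alone. Their part in the 2 genes was not tested.

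Among the regulators of class I genes, 19 were tested. Irf8, a transcription factor of dendritic cells and macrophages, stood at 1.67 and 0.88 in Fr1, 0.10 and -0.94 in Fr2, and -0.55 and -0.35 in Fr3, so that both Fr1 arrays were above all others (Fr1 minus Fr3 1.73 ± 0.63, adjusted p = 0.537, limma). The sum of the T and NK cell markers given above was also highest in Fr1. Of 8 dendritic cell markers, 7 had a higher mean in Fr1 than in Fr3, beside 9878 of all 20817 genes. Against Fr2, 4 were higher in Fr1 and 4 lower. Their summed relative intensity was 38.8 and 31.3 in Fr1, 63.0 and 38.3 in Fr2, and 27.2 and 67.7 in Fr3. The part of any of these cell types in Irf8 was not tested. Of 14 interferon-induced genes, Oasl2 stood at -1.25 and -3.04 in Fr1, 1.30 and 1.17 in Fr2, and 1.98 and 0.65 in Fr3. A lower mean in Fr1 than in Fr3 was found for 8 of the 14, beside 10939 of all 20817 genes. Isg15, an interferon-induced ubiquitin-like protein, stood at 1.92 and 1.94 in Fr1, 1.84 and 2.16 in Fr2, and 0.65 and 0.97 in Fr3. The median interferon-induced difference was -0.43 for Fr1 minus Fr2, -0.05 for Fr1 minus Fr3 and 0.02 for Fr2 minus Fr3.

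Further lists held relatives of the heavy chains, peptidases, receptors and proteasome subunits. The 18 of 25 nonclassical heavy chain genes tested, which share sequence with each other so that probes may read more than 1, had median differences of 0.35, -0.03 and -0.32 for Fr1 minus Fr2, Fr1 minus Fr3 and Fr2 minus Fr3. Peptidases other than Erap1 were 6 genes with medians of -0.57, -0.02 and 0.21, and the 4 myeloid receptors for class I molecules had medians of -0.27, -0.02 and 0.29. Pira2, an activating receptor of this family, stood at 1.93 and 1.94 in Fr1, 3.70 and 3.93 in Fr2, and 2.22 and 1.59 in Fr3. Both Fr2 arrays were above all others. They lay on a slide of their own, and the sums of the neutrophil and of the eosinophil markers were also highest in Fr2. The part of slide or cell types in Pira2 was not tested. Other inducible proteasome subunits, 3 genes, had medians of 0.15, -0.06 and 0.18.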

How the data were processed

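The deposited intensity values come from Feature Extraction 11.5.1.1 (Agilent), as stated per the file headers, and from 1-colour arrays of Cy3-labelled cDNA amplified from sorted cells, per the labels' protocols. A table of log2 values deposited by the authors matched them (Pearson r at least 0.9999 across probes) and served as an alternative. Its 75th percentile was 0 to 0.01, so its scale and centring were settled. Processed intensity was averaged over spots of a probe, taken as log2 and centred on each array's 75th percentile. Kept probes were well above background on both replicates in 1 or more fractions (27867 probes, 4 left out for outlier flags), and the brightest kept probe stood for the gene. Probe names were updated through a RefSeq table. Groups were compared in limma 3.58.1 (R 4.3.3), with 3 group means over all 6 arrays, Benjamini-Hochberg adjustment over 20817 genes and a call at an adjusted p under 0.05. With 2 arrays a fraction, their number limits the precision. Named genes were all 10 members, up to 3 genes of each pathway list by the F-test, the 3 sort markers and the 5 genes most like the members. The members and lists were chosen with earlier results of these data known. Alternatives in background correction, scaling, filters, probe choice, T content, replicate number and left-out arrays are given in the closing section, and the trend with T content was chosen after seeing the data.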

Additional observations from a re-analysis of the deposited data

How the results depend on the processing

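Of 17 alternative settings, 1 gave a member call, Erap1 in Fr1 minus Fr3 without Fr3 replicate 1. The count of genes called by the F-test (1 in the setting reported) was 0 with median scaling, no filter, normexp, quantile scaling or the replicate block, 3 with probes above background on all 6 arrays and 48 with probes of at most 30% T. For Fr1 minus Fr2 (0) it was 3 in the fit of the 2 groups alone and 7 with at most 30% T, for Fr1 minus Fr3 (1) it was 0 with no filter, normexp, the 2 groups or the replicate block and 12 with at most 30% T, and for Fr2 minus Fr3 (1) it was 2 with normexp, 0 with the 2 groups or the block, 14 with all 6 arrays and 56 with at most 30% T. Leaving out 1 array, the counts lay between 0 and 1076 (F-test), 0 and 3 (Fr1 minus Fr2), 0 and 1407 (Fr1 minus Fr3) and 0 and 933 (Fr2 minus Fr3), each highest without Fr3 replicate 1, which leaves 1 Fr3 array (for Fr1 minus Fr2 also without Fr3 replicate 2). Labels share replicate numbers across fractions, but deviations of same-numbered arrays correlated by 0.118, 0.433 and 0.046 for Fr1 and Fr2, Fr1 and Fr3, and Fr2 and Fr3, with only 2 numbers, so they were not taken as pairs. Signs turned as follows, with the cause not tested. B2m turned in Fr1 minus Fr2 to 0.0792 (mean of probes) and 1.03 (at most 30% T), in Fr1 minus Fr3 to 0.27 (mean of probes), 0.18 (normexp), 0.66 (at most 30% T) and 0.21 (quantile), and in Fr2 minus Fr3 to -0.37 (at most 30% T). H2-K1 turned with at most 30% T to 0.16, -0.18 and -0.33, and with the T trend removed to -0.61 in Fr1 minus Fr3 and -0.0829 in Fr2 minus Fr3. Psmb8 turned to 0.0113 (normexp, Fr1 minus Fr2), 0.0171 (T trend removed, Fr1 minus Fr3), and 0.10 (median scaling) and 0.21 (T trend removed) in Fr2 minus Fr3, and Tap2 in Fr1 minus Fr2 to 0.0834 (normexp) and 0.0482 (quantile). Leaving out 1 array in turn, without a call, B2m in Fr1 minus Fr3 lay between -0.391 and 0.155, Psmb8 between -0.600 and 0.373, -0.605 and 0.368, and -0.265 and 0.255 in Fr1 minus Fr2, Fr1 minus Fr3 and Fr2 minus Fr3, Tap1 between -0.910 and 0.139, -0.791 and 0.258, and -0.113 and 0.351 in the same order, and in Fr1 minus Fr2 Tap2 lay between -0.263 and 0.0470 and Tapbp between -0.0046 and 0.943. The median member difference kept its sign in each setting tried for Fr1 minus Fr2, and for Fr2 minus Fr3 except -0.0051 with at most 30% T. In Fr1 minus Fr3 it was 0.0593 with all 6 arrays, 0.0719 with normexp and 0.0812 with quantile scaling, and lay between -0.16 and 0.20 with 1 array left out. Filters test fewer members: 8 with all 6 arrays and 7 with at most 30% T.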
